A study of Mus musculus with 26 samples.

Results

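The 10 genes described here carry and load the peptides that cells show to T cells. They were chosen by name. H2-K1, H2-D1, B2m, Tapbp, Psmb8 and Psmb9 serve class I, and H2-Aa, H2-Ab1, H2-Eb1 and Cd74 serve class II. All 10 had rows among the 16426 genes of the scRNAseq counts and among the 17623 genes of each of the bulk RNAseq tables used. The choroid is the vascular bed behind the retina, and the retinal pigment epithelium (RPE) lies between the choroid and the photoreceptors. The study profiled mouse RPE/choroid by droplet-based scRNAseq and asked, with bulk RNAseq, what the loss of the ligand Ihh from endothelial cells (ECs) and the activation of hedgehog signaling in cultured choroidal stromal cells do to gene expression.

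The scRNAseq data hold 1 library of B6129PF1/J mice and 1 library of C57BL/6J mice, both 3 months old, from live nucleated cells sorted by Hoechst and TO-PRO-3. Each library pooled the tissue of 1 male and 1 female eye, so it holds no replicate animals. The Ihh comparison used RPE/choroid tissue of 6-month-old mice on the C57BL/6J background, 3 libraries of Ihh+/+ and 3 libraries of Ihh iDEC/iDEC mice. All mice of that comparison, the Ihh+/+ controls included, carried the Cdh5-Cre ERT2 transgene and had received tamoxifen 12 weeks earlier, so the recombinase was driven by an EC promoter in both groups. The GLI1+ cells were sorted from RPE/choroid of Gli1 GFP/+ mice, labelled SWR/J, for GFP made from the Gli1 locus and were expanded in culture. The methods describe an outcross of these reporter mice to BALB/c, so the alleles of the cultured cells at the H2 genes were not known here. The methods describe cells of several female mice sorted into a shared well, expanded, frozen and kept in low serum overnight before treatment. The cultured cells then received DMSO (3 libraries) or 100 nM SAG, a small-molecule agonist of the hedgehog pathway, for 24 h (3 libraries). The 3 libraries of a treatment therefore need not stand for separate animals. Neural retina, lung, liver and heart EC libraries (3 each) were not used here.

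Class I molecules are carried by nearly all nucleated cells. They consist of a heavy chain, such as those encoded by H2-K1 and H2-D1, and of beta-2-microglobulin, encoded by B2m. Their peptides are cut by the proteasome, in which the inducible subunits encoded by Psmb8 and Psmb9 can replace standard subunits, and are loaded with the help of tapasin, encoded by Tapbp. Class II molecules pair an alpha chain (H2-Aa) with a beta chain (H2-Ab1); H2-Eb1 encodes the beta chain of a second class II molecule. The invariant chain, encoded by Cd74, guides them to the endosome, and dendritic cells, macrophages and B cells are known for carrying them.

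On GRCm38 (mm10), as annotated by GENCODE, 8 of the members lie within 1352 kb of chromosome 17, in the major histocompatibility complex (MHC). Tapbp (chr17:33915899-33929292, plus strand) and H2-K1 (chr17:33996017-34000347, minus strand) lie at one end, and H2-D1 (chr17:35262730-35267499, plus strand) at the other. Between them lie Psmb9 (chr17:34181987-34187764, minus strand), Psmb8 (chr17:34197721-34201454, plus strand), H2-Ab1 (chr17:34257689-34269419, plus strand), H2-Aa (chr17:34282744-34287823, minus strand) and H2-Eb1 (chr17:34305867-34316674, plus strand). B2m lies outside the MHC (chr2:122147686-122153083, plus strand).

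Promoter windows of 250 bases before to 50 bases after the start site (RefSeq, GRCm38.p6) were at hand for 8 of the 10 members, leaving out H2-Ab1 and Cd74. They were searched on both strands for CTGATTGG, an inverted CCAAT box of the kind found in MHC promoters. GGGGATTCC, the NF-kB site of class I genes, and GAAANNGAAA, the core of interferon-stimulated response elements, were searched likewise. CTGATTGG and GGGGATTCC were chosen as known from promoters of such genes, so their counts are a description and not a test. CTGATTGG was in the windows of 5 members, against 4.1% of all 32851 windows. GGGGATTCC was in the windows of 2 members, against 0.25% of all windows, and the interferon core in 1 member, against 3.44%. Tapbp and Psmb8 held none of these letters. Only these exact letters were searched, so a window without a match may still hold another form of such a site. The stretches around the matches are shown because they set the heavy chains of class I beside the chains of class II, and capitals mark the matches (CCAATCAG is CTGATTGG read on the other strand). The Psmb9 window shares 275 bases with that of Tap1, a subunit of the peptide transporter, on the other strand.
H2-K1, chr17:34000320-34000470, minus strand: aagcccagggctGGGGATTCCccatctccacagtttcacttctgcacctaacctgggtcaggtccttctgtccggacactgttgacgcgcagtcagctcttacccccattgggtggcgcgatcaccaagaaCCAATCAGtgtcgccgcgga
H2-D1, chr17:35262911-35263060, plus strand: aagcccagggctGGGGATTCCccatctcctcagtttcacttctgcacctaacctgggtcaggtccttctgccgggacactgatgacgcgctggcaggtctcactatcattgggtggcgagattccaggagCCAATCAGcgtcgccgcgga
B2m, chr2:122147536-122147569, plus strand: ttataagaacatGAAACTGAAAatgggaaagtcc
Psmb9, chr17:34187322-34187353, minus strand: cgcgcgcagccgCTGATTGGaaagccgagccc
H2-Aa, chr17:34287855-34287886, minus strand: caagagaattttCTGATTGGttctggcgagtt
H2-Eb1, chr17:34305793-34305824, plus strand: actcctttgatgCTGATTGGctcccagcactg

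The H2-K1 and H2-D1 promoter stretches were identical at 134 of 151 aligned positions. Of the 98-base windows of the longest coding transcript, 4.74% in H2-D1, 0% in H2-K1 and 0.178% in Tapbp were also in a transcript of another gene, and the other 7 members had none. The H2-D1 windows were shared with H2-Q1, H2-T23 and Gm7030, not with H2-K1, and in the last 500 bases 0% were shared for every member. This count covers exact matches to the C57BL/6J reference and not the alleles of the other strains, which may differ in the H2 genes and were not looked at here.

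The scRNAseq counts summed to 17168578 unique molecular identifiers (UMIs) in 3637 B6129PF1/J cells and 15230413 UMIs in 3928 C57BL/6J cells, with 3881 and 3174.5 UMIs in the median cell. The libraries shared 22 cell barcodes. The authors assigned cells to 13 clusters, of which cluster 11 holds the hematopoietic cells (106 and 127 cells). Levels are given as UMIs per 10,000 UMIs of a cluster, the B6129PF1/J value first, and exact 95% Poisson intervals cover counting error only. With 1 library per strain, no difference between strains or clusters was tested across animals.

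Transcripts of H2-K1, H2-D1 and B2m were found in all 13 clusters, at levels that differed widely, while class II transcripts were almost all in the hematopoietic cluster. Of the 10 members, 9 had their highest level in that cluster in B6129PF1/J and 9 in C57BL/6J, Tapbp being the exception in both libraries. For Psmb9 in C57BL/6J, the interval overlapped that of the Kdr low ECs (1.85 against 1.39), and with each cell thinned to 1700 UMIs the order turned (1.39 against 1.63).

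The heavy chain H2-K1 had 9.575 and 11.4 UMIs per 10,000 in hematopoietic cells, 6.11 and 9.37 in the Kdr low ECs of cluster 4, and 0.377 and 0.4 in RPE. H2-D1, the other heavy chain, had 23.1 and 28.4 in hematopoietic cells, 18.5 and 22.1 in cluster 4, 13.9 and 22.2 in the Schwann cells of cluster 12, and 0.277 and 0.429 in RPE. For H2-K1, the hematopoietic level was thus 25.4 and 28.4 times that of RPE, and for H2-D1 83.4 and 66.2 times. The RPE was the lowest of the 13 clusters for both heavy chains in both libraries. Neighbours in the order of clusters often had overlapping intervals, for H2-K1 in 10 of 12 neighbouring pairs in B6129PF1/J and in 7 of 12 in C57BL/6J.

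B2m, the shared light chain, had 41.7 and 51.7 UMIs per 10,000 in hematopoietic cells. Melanocytes followed in B6129PF1/J with 37.8, with overlapping intervals, and the Schwann cells of cluster 12 in C57BL/6J with 44.6. Its lowest level was in smooth muscle cells (3.24 and 4.37), not in RPE, where 7.82 and 8.42 were found. The light chain and the heavy chains therefore differed in their order of clusters: melanocytes had 4.17 and 5.97 of H2-D1 beside 37.8 and 39.1 of B2m. The melanocyte cluster held 16 and 26 cells.

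Among the genes of peptide supply, Psmb8 had 4.29 and 5.71 UMIs per 10,000 in hematopoietic cells and 1.77 and 2.9 in Kdr low ECs. In RPE it had 0.0333 and 0.0686, from 10 and 12 UMIs, so the hematopoietic level was 129 and 83.1 times higher. Psmb9 had 1.52 and 1.85 in hematopoietic cells and 2 UMIs in the RPE of each library. In melanocytes it had 0 UMIs in both libraries, which allows a level of up to 0.415 and 0.356. Tapbp had its highest level in Kdr low ECs (1.89 and 2.18), where the interval overlapped that of the next cluster, and 0.297 and 0.378 in RPE. The 3 standard subunits that the inducible ones replace (Psmb5, Psmb6 and Psmb7) differed from them in their summed level, which was highest in RPE, at 8.13 and 8.33, and lowest in hematopoietic cells, at 4.13 and 5.56.

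**Figure D1:**
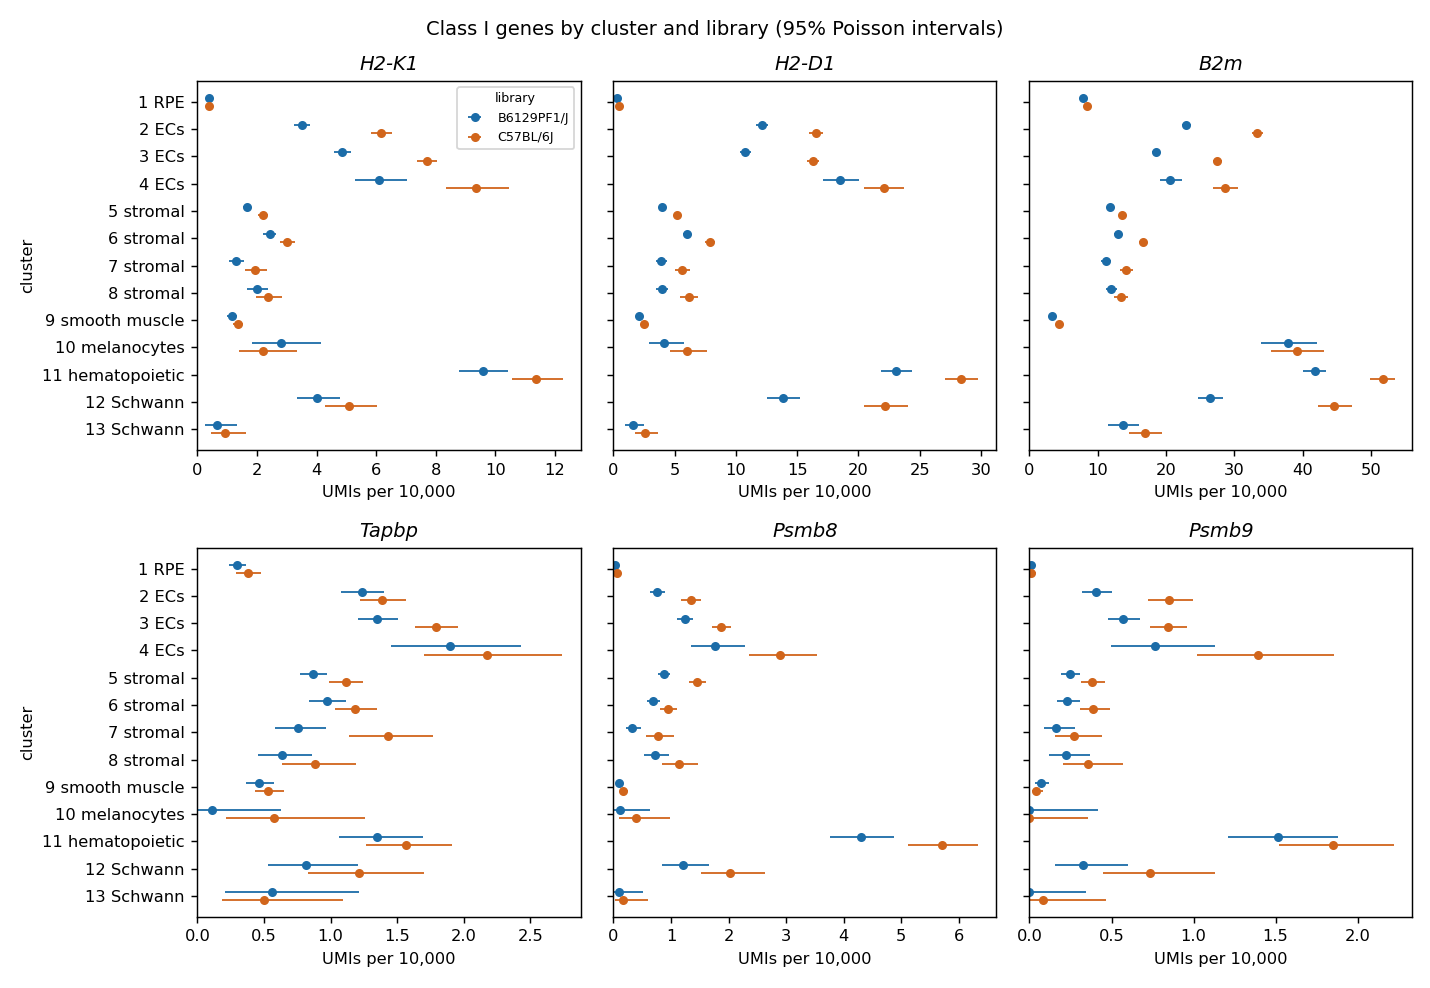
Levels of the 6 class I genes (UMIs per 10,000, linear axes from 0) in the 13 clusters of the B6129PF1/J (blue) and C57BL/6J (orange) libraries; bars are 95% Poisson intervals. H2-K1, H2-D1 and Psmb8 lie near 0 in RPE and are highest in cluster 11, and B2m is also high in melanocytes (37.8 and 39.1).

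Clusters 2, 3 and 4 are the ECs with high, medium and low levels of Kdr, a VEGF receptor (16.4, 8.86 and 0.611 UMIs per 10,000 in B6129PF1/J). H2-K1 had the opposite order: 3.52, 4.86 and 6.11 in B6129PF1/J, and 6.17, 7.70 and 9.37 in C57BL/6J, with intervals apart at each step. Psmb8 had the same order as H2-K1, with 0.761, 1.24 and 1.77 in B6129PF1/J and 1.34, 1.87 and 2.9 in C57BL/6J. In B6129PF1/J its intervals in clusters 3 and 4 overlapped (1.10 to 1.39 and 1.35 to 2.29). H2-D1 had 12.1, 10.8 and 18.5 in B6129PF1/J and 16.5, 16.3 and 22.1 in C57BL/6J, highest in the Kdr low ECs. B2m had its highest EC level in the Kdr high ECs instead, at 22.97 and 33.4.

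The genes outside the pathway lists whose pattern over the 13 clusters was most like that of H2-K1 were Clic1, Parp14, Slc25a45, Smc4 and Tmed5. Their lower Pearson r of the 2 libraries ran from 0.858 to 0.884, beside 0.96 for H2-D1 and 0.876 for Psmb8. For H2-Ab1 they were Selplg, Il1b, Laptm5, Alox5ap and Itgb2, with 0.962 to 0.972. These r are over 13 clusters on the log2(level + 0.1) scale, whose points share their library and its depth, and they are a description.

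Of all class II UMIs, 98.1% in B6129PF1/J (95% exact binomial interval 97.9 to 98.2) and 96.2% in C57BL/6J (95.9 to 96.4) were in the hematopoietic cluster, which held 2.91% and 3.23% of the cells. For class I genes that share was between 5.01% (Tapbp) and 18.2% (Psmb8) in B6129PF1/J and between 5.37% and 17.5% in C57BL/6J. Cd74 had 324 and 203 UMIs per 10,000 in hematopoietic cells, H2-Ab1 118 and 69.6, H2-Aa 113 and 63.3, and H2-Eb1 98.9 and 45.4. In no other cluster did one of the 4 genes exceed 0.842 (Cd74 in the Kdr medium ECs of C57BL/6J).

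Genes that act with the class II chains were also highest in hematopoietic cells. H2-DMa, a chain of the peptide editor of class II, had 11.1 and 6.78 UMIs per 10,000 in hematopoietic cells, and Ctss, the protease that trims the invariant chain, 17.8 and 25.6. Ciita, the master regulator of class II, had 0.548 and 0.28 there. Outside that cluster, Ciita had UMIs only in the Kdr medium ECs of C57BL/6J (6 UMIs, 0.0223). The 0 UMIs of the same cluster in B6129PF1/J allow a level of up to 0.0153. H2-DMa and Ciita were named after their values were seen.

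The hematopoietic cells were clustered again without the members, other H2 genes and the pathway lists, which gave 11 subclusters of 233 cells. The 4 class II genes summed to 1180 UMIs per 10,000 in B6129PF1/J and 802 in C57BL/6J in subcluster 2. Its leading genes mixed those of conventional dendritic cells (Cd209a, Mgl2, Clec10a) with those of plasmacytoid dendritic cells (Siglech, Cd209d, Ly6d, Klk1, Cd7), and it was left unnamed. In every B6129PF1/J cell of it (19 cells) at least 63 class II UMIs were found, and at least 23 in every C57BL/6J cell (10 cells). At the other end, the T and NK-like subcluster 6 held 1 class II UMI in 17 B6129PF1/J cells and 0 UMIs in 5 C57BL/6J cells. The latter count allows a level of up to 3.07 per 10,000 (exact Poisson interval).

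Macrophage-like cells differed among themselves. Subcluster 7, led by Cxcl2 and Cd72, had 934 and 722 class II UMIs per 10,000, and each of its cells held at least 197 in B6129PF1/J and 40 in C57BL/6J. Subcluster 3, led by Ctsd and Fabp5, had 359 and 63.5, with medians of 60 and 3 class II UMIs per cell. Subcluster 4 had 462 and 324. It held macrophage markers, led with Pf4 and Folr2, but also melanocyte transcripts (Dct, Mlana), and was left unnamed. In the neutrophil and monocyte-like subcluster 8, led by Lyz1 and Ly6c2, 378 and 215 were found, with medians of 69 and 8.5 UMIs per cell and up to 633 and 531 in a cell. Its name is that of the marker class. The markers that gave it were Ly6c2, Ccr2 and Plac8, without the neutrophil genes S100a8 and S100a9, so it does not show class II in neutrophils. In the 7 B-like cells of subcluster 11, 418.5 and 390.5 were found.

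Subcluster 1 was left unnamed because mast cell genes and a dendritic gene (Xcr1) led it together. Of its 29 cells, 2 C57BL/6J cells held 10 or more UMIs of the mast cell genes Cma1, Mcpt4, Tpsb2 and Cpa3, and these had 0 class II UMIs. The others had medians of 663 (15 B6129PF1/J cells) and 646 (12 C57BL/6J cells) class II UMIs, and 12 and 9 of them held a UMI of Xcr1 or Clec9a, genes of cross-presenting dendritic cells. This split was chosen after the values were seen. Subclusters 9 and 10 were led by transcripts of RPE and stroma (Ttr, Dcn) and of ECs (Plvap, Plpp1) and were left unnamed. No doublets were removed, and 3 of the 233 cells held both Xist and Ddx3y, transcripts of female and male cells.

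Class I genes varied less among the subclusters than class II genes. Their sum had its lowest level in subcluster 9 (46.8 and 71.6 UMIs per 10,000) and its highest in subcluster 5 (150 and 165), which was led by Pglyrp1, Gngt2 and Ace. Subcluster 5 had 156 and 141 of class II, with medians of 15 and 11 UMIs per cell. T and NK-like cells, with class II at or near 0, had class I sums of 71.3 and 116. Psmb8 and Psmb9 had their highest C57BL/6J levels in subcluster 1, with 10.98 and 5.15, and there they had 6.71 and 3.27 in B6129PF1/J.

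**Figure D2:**
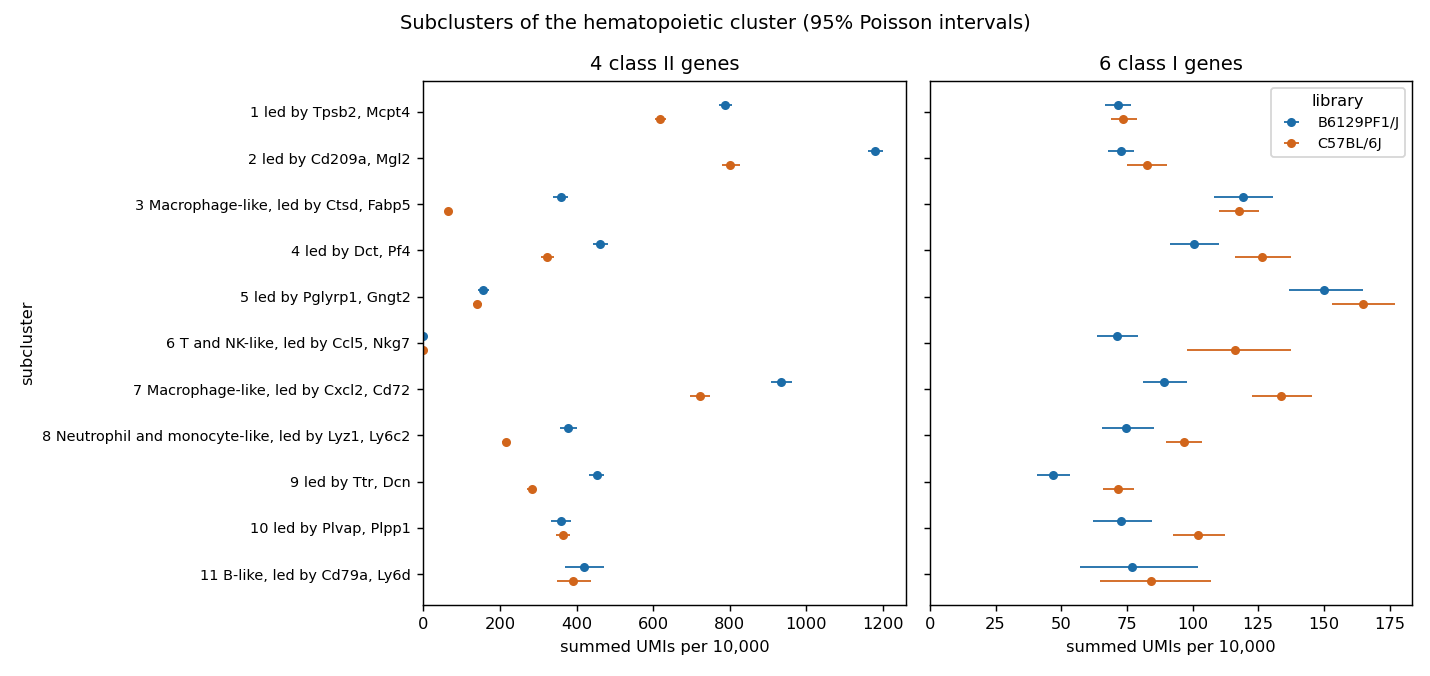
Summed levels (UMIs per 10,000) of the 4 class II and the 6 class I genes in 11 subclusters of the hematopoietic cells, by library; bars are 95% Poisson intervals. Class II runs from 0 in T and NK-like cells to 1180 in subcluster 2, while class I stays between 46.8 and 165.

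Outside the hematopoietic cluster, class II UMIs were most frequent in the Kdr medium ECs of cluster 3. The 4 genes summed to 0.945 UMIs per 10,000 (95% interval 0.826 to 1.08) in B6129PF1/J and 2.05 (1.88 to 2.23) in C57BL/6J. The Kdr high ECs had 0.341 (0.263 to 0.435) and 0.208 (0.147 to 0.286), and the Kdr low ECs 0.428 and 0.786. The remaining 9 clusters had between 0.263 and 0.563 in B6129PF1/J and between 0.195 and 0.489 in C57BL/6J. After each cell was thinned to 1700 UMIs, 11.2% and 19.5% of the Kdr medium ECs held a class II UMI, against 5.95% and 2.23% of the Kdr high ECs and 4.18% and 4.01% of RPE cells. Before thinning the shares were 23.5% and 32.6%, 15.1% and 9.43%, and 16.5% and 9.36%, with median depths of 4147 and 3430, 4232.5 and 3460, and 5263 and 3406.5 UMIs. In the Kdr low ECs (63 and 72 cells) the share after thinning was 3.175% and 13.9%. In C57BL/6J its interval (6.87 to 24.1) overlapped that of the Kdr medium ECs (16.3 to 23.1).

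Other hematopoietic transcripts varied in these ECs. After thinning, 1.86% and 2.91% of the Kdr medium ECs held a UMI of Ptprc, Tyrobp or Fcer1g, against 2.43% and 6.95% of the Kdr high ECs. As a percentage of its hematopoietic level, Lyz2 in cluster 3 was at 0.0675% and 0.0766%, C1qa at 0.0531% and 0.0766%, and Tyrobp at 0.0371% and 0.0391%. C1qb was at 0% in both libraries, and Ptprc at 0% and 0.433%, the latter in a library with 7 Ptprc UMIs outside cluster 11. Fcer1g stood higher than these, at 0.693% and 0.714% in cluster 3 and at 0.612% and 2% in cluster 2. H2-Ab1 was at 0.263% and 0.778% in cluster 3, against 0.0976% and 0.149% in cluster 2. H2-Aa was at 0.154% and 0.733%, and Cd74 at 0.113% and 0.416%. In B6129PF1/J these percentages lay below that of Fcer1g. In C57BL/6J that of Cd74 lay below those of Fcer1g and Ptprc, and those of H2-Aa and H2-Ab1 lay little above that of Fcer1g. H2-Eb1 stood at 0.0964% in B6129PF1/J, close to Lyz2, and at 0.45% in C57BL/6J, below Fcer1g. The make-up of the class II sum differed too: Cd74 gave 49.5% and 53.2% of it in hematopoietic cells (intervals 48.98 to 50.02 and 52.54 to 53.84) and 38.6% and 41.0% in cluster 3 (32.2 to 45.3 and 36.9 to 45.3). Over all clusters outside cluster 11 it gave 35.3% and 40.3%. Cluster 3 is among these and held 228 of their 699 and 553 of their 926 class II UMIs. The pooled shares lay below those of cluster 3, so the lower share was not particular to cluster 3.

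With 10 or more class II UMIs there were 4 B6129PF1/J and 6 C57BL/6J cells in cluster 3, all 10 of which held UMIs of EC markers. Of these, 4 and 5 held no UMI of Ptprc, Tyrobp or Fcer1g. The cell with the most, 77 UMIs, held 4 such UMIs and 15 UMIs of B or T cell markers. Without these cells the level in cluster 3 was 0.723 and 1.55, still above the intervals of the Kdr high ECs. In B6129PF1/J its interval (0.619 to 0.839) then overlapped that of the Kdr low ECs (0.234 to 0.718). In C57BL/6J these intervals lay apart (1.403 to 1.705 against 0.513 to 1.151). Without the cells that held a UMI of Ptprc, Tyrobp or Fcer1g the level in cluster 3 was 0.998 and 1.79. The only other such cells outside cluster 11 were 2 stromal cells of cluster 6 in C57BL/6J, each with 4 UMIs of those 3 genes. The part of free RNA and doublets in these values was not tested beyond these counts.

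**Figure D3:**
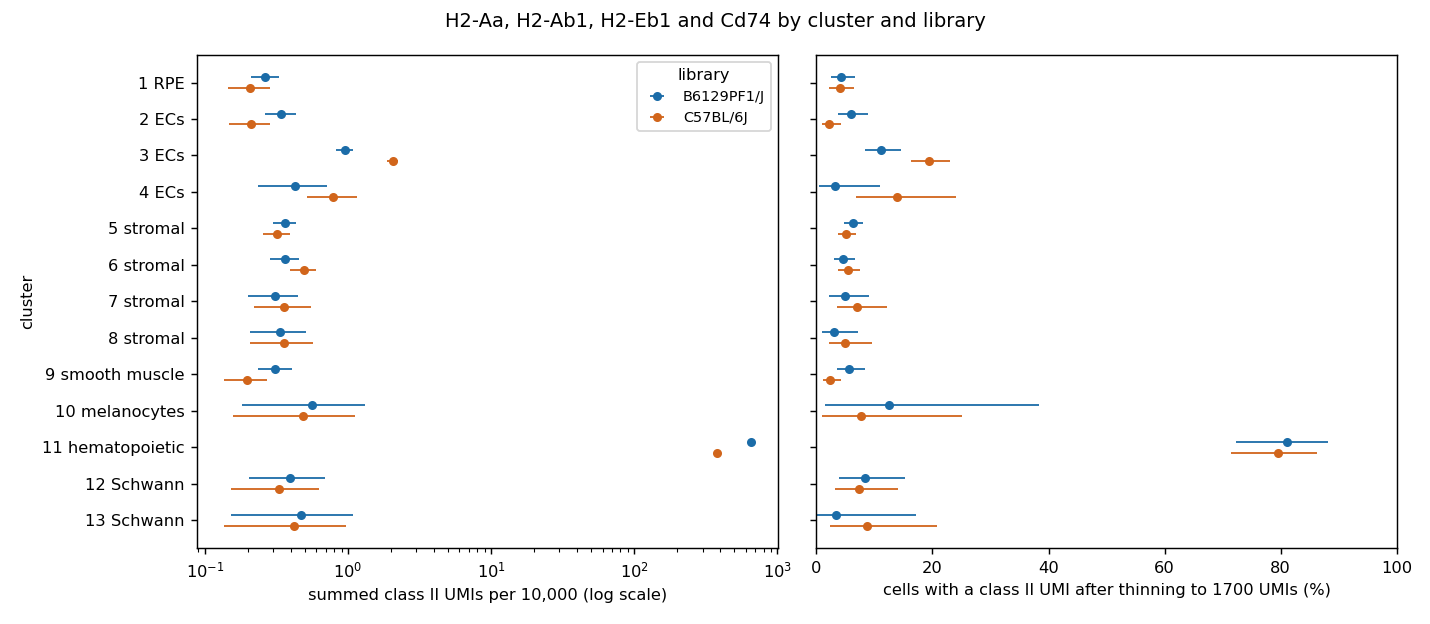
Summed level of H2-Aa, H2-Ab1, H2-Eb1 and Cd74 by cluster (left, UMIs per 10,000, log scale, 95% Poisson intervals) and share of cells with a class II UMI after thinning to 1700 UMIs (right, exact binomial intervals), for both libraries. Cluster 11 stands at 654 and 381, and cluster 3 (0.945 and 2.05) lies above the Kdr high ECs of cluster 2 (0.341 and 0.208).

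The strains were compared by the ratio of levels, C57BL/6J over B6129PF1/J. Over whole libraries all 6 class I members were higher in C57BL/6J: Psmb9 by 1.77 times, Psmb8 by 1.72, H2-K1 by 1.6, H2-D1 by 1.54, B2m by 1.41 and Tapbp by 1.35. The first 4 were at least 1.5 times apart, against 3.17% of the 11517 genes with at least 100 UMIs. As a mean over the 13 clusters, H2-K1 (1.34) and H2-D1 (1.36) were under 1.5 times. H2-D1, B2m and Psmb8 were higher in C57BL/6J in 13 of 13 clusters, H2-K1 and Tapbp in 12 and Psmb9 in 11. The intervals lay apart in 9 of these clusters for H2-D1 and B2m, 7 for H2-K1, 6 for Psmb8 and 3 for Tapbp and Psmb9. The class II members were lower in C57BL/6J over whole libraries, with ratios of 0.721 (H2-Aa), 0.757 (H2-Ab1), 0.581 (H2-Eb1) and 0.795 (Cd74). Of these, H2-Eb1 was at least 1.5 times higher in B6129PF1/J, against 3.3% of genes. As a mean over the 13 clusters, H2-Aa, H2-Ab1 and Cd74 were also at least 1.5 times higher in B6129PF1/J. Both subunits of the peptide transporter were also higher in C57BL/6J, Tap1 by 1.73 times and Tap2 by 1.54, while the standard proteasome subunits had ratios of 1.09 (Psmb5), 1.12 (Psmb6) and 0.964 (Psmb7).

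Within ECs, 9 members had at least 100 UMIs, and 6 of them (H2-K1, Psmb8, Psmb9, H2-Aa, H2-Ab1 and Cd74) were at least 1.5 times higher in C57BL/6J, against 2.95% of 7905 genes. Within the hematopoietic cluster, 0 of 10 members were that much higher in C57BL/6J, against 15.2% of 1405 genes. The class I ratios there ran from 1.16 (Tapbp) to 1.33 (Psmb8), beside a median ratio of 1.15 over the 1405 genes. All 4 class II genes were at least 1.5 times higher in B6129PF1/J there, against 5.55% of genes: H2-Eb1 by 2.18 times, H2-Aa by 1.78, H2-Ab1 by 1.7 and Cd74 by 1.6. The EC ratios pool clusters 2 to 4. In the Kdr high ECs the class II sum was lower in C57BL/6J (0.208 against 0.341), with overlapping intervals, and in the Kdr medium ECs it was higher (2.05 against 0.945), with intervals apart. The difference between ECs and hematopoietic cells was not tested.

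The kinds of hematopoietic cells differed between the libraries, with 19 and 10 cells in subcluster 2 and 17 and 5 T and NK-like cells. The class II level was lower in C57BL/6J with intervals apart in 7 of the 11 subclusters, and the intervals overlapped in the other 4 (5, 6, 10 and 11). Several subclusters held cells with few and with many class II UMIs, and the part of the mix of cells in the strain ratio was not tested. B2m, which lies outside the MHC, had a ratio of 1.41. Reads of both libraries were aligned to the C57BL/6J reference, so strain, library and the alignment of other alleles cannot be told apart.

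**Figure D4:**
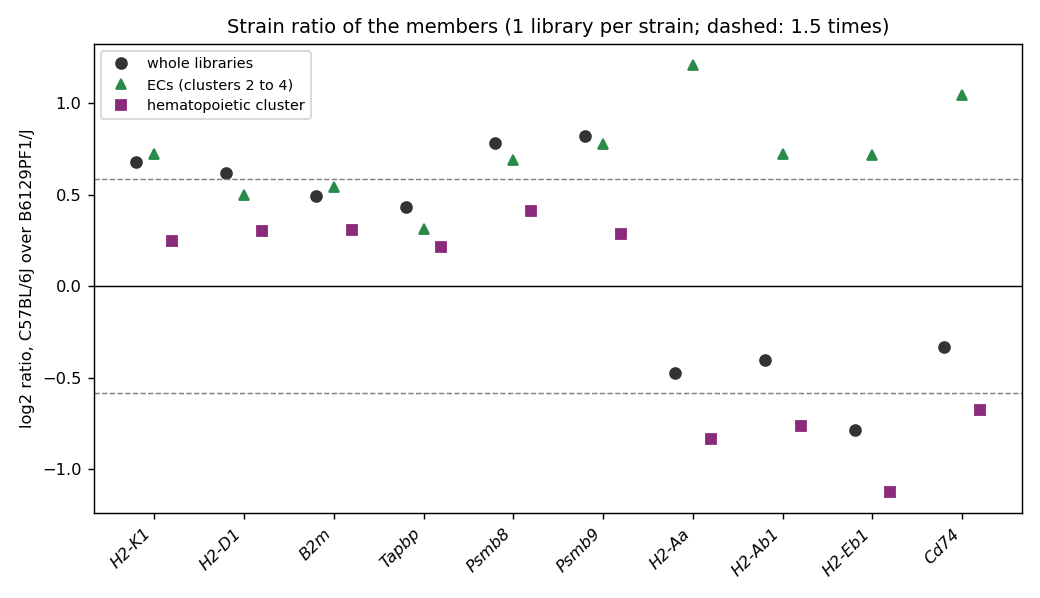
Log2 ratio of levels, C57BL/6J over B6129PF1/J, of the 10 members over whole libraries (circles), ECs (triangles) and the hematopoietic cluster (squares); dashed lines mark 1.5 times, and there is 1 library per strain. The 6 class I genes lie above 0 in all comparisons shown, and the 4 class II genes lie below 0 in the hematopoietic cluster and above 0 in ECs pooled over clusters 2 to 4. Over the 1405 genes compared in the hematopoietic cluster, the median ratio was 1.15 and so also above 0 on this scale.

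The Ihh comparison asked what the loss of Ihh from ECs changes in RPE/choroid tissue. The deposited values are group averages of FPKM, which scale fragments by transcript length and library size, over 3 libraries, with no spread, so no difference could be tested. The targeted gene had 1.53 FPKM in Ihh+/+ and 0.454 in Ihh iDEC/iDEC, and its target Gli1 had 9.4 and 3.15.

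None of the 10 members was 1.5 times apart in either direction, against 2.17% (higher) and 2.53% (lower in Ihh iDEC/iDEC) of 11411 genes with at least 1 FPKM. Among class I genes, H2-K1 had 91.4 FPKM in Ihh+/+ and 88.0 in Ihh iDEC/iDEC, H2-D1 163.5 and 160.1, and B2m 461.9 and 446.5. Tapbp had 28.4 and 27.0, Psmb8 11.1 and 10.0, and Psmb9 6.93 and 5.83. Psmb9 had the ratio farthest from 1, at 0.841. Of the class II genes, Cd74 had 115.6 and 105.9 FPKM, H2-Aa 41.7 and 40.6, H2-Ab1 39.5 and 37.3, and H2-Eb1 24.4 and 23.1. Every ratio was below 1, with medians of -0.06 (class I) and -0.08 (class II) on the log2 scale, beside -0.04 over all genes.

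Of the other pathway genes at 1 FPKM or more, 0 of 10 class I relatives, 0 of 10 genes of class I peptide supply, 0 of 6 class II genes, 0 of 12 regulators, 0 of 2 costimulation genes and 0 of 3 standard proteasome subunits were 1.5 times apart. Summed markers of hematopoietic cells had 98.0 and 106 FPKM. Photoreceptor markers had 71.2 and 25.2, stromal markers 199.9 and 117 and melanocyte markers 979 and 618. RPE markers had 5922 and 7071, EC markers 74.5 and 63.5, smooth muscle markers 56.65 and 50.7 and Schwann markers 27.9 and 28.6. The part of these shifts in the values of the members was not tested. In bulk tissue, fewer cells of a type and less RNA per cell cannot be told apart.

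The culture comparison asked what hedgehog activation changes in GLI1+ cells. SAG cells had 3.65 FPKM of Gli1 against 0.028 with DMSO, and 10.1 against 1.125 of Ptch1, both targets of the pathway.

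Of the 6 class I members, 4 were at least 1.5 times lower with SAG, and the inducible proteasome subunits were farthest apart. Psmb9 had 5.76 FPKM with DMSO and 1.31 with SAG, a level 4.385 times lower, and Psmb8 had 14.3 and 3.56, which is 4.025 times lower. H2-K1 had 30.6 and 18.4 (1.665 times lower) and Tapbp 39.9 and 26.3 (1.52 times lower). These 4 compare with 2.45% of 10325 genes with at least 1 FPKM. With a pseudocount of 1 FPKM Tapbp fell short of 1.5 times, and at 2 times only Psmb8 and Psmb9 stayed apart. None was that much higher, against 1.38%. H2-D1 had 100.6 and 77.8 FPKM and B2m 243 and 193, which is 1.29 and 1.26 times lower. The median over the 6 class I members was -0.67 on the log2 scale, beside 0.06 over all genes.

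The 3 standard subunits that Psmb8, Psmb9 and Psmb10 replace did not stand lower: Psmb5 had 44.2 and 45.0 FPKM, Psmb6 42.8 and 45.7, and Psmb7 46.0 and 47.5. Of the 10 genes of class I peptide supply and loading, 3 were at least 1.5 times lower and 0 higher, and the chaperones of loading had ratios of SAG over DMSO of 1.06 (Calr), 1.12 (Canx) and 1.02 (Pdia3). Psmb10, the third inducible subunit, had 15.4 and 6.26 FPKM, Tap1, a subunit of the peptide transporter whose promoter window overlaps that of Psmb9, 14.6 and 5.31, and Tap2, the other subunit, 18.45 and 11.7. Of 12 class I heavy chains and relatives, 6 were at least 1.5 times lower: H2-T24 had 5.52 and 0.829 FPKM, H2-Q4 16.5 and 6.89, H2-T23 64.9 and 31.4, H2-T22 12.7 and 6.78, H2-T10 4.86 and 2.79 and H2-Q1 4.17 and 2.77.

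Class II was at or near 0 in the cultured cells. H2-Aa was listed at 0 in both groups. H2-Ab1 had 0.0983 and 0.064 FPKM, H2-Eb1 0.153 and 0.175, and Cd74 0.22 and 0.229, all under the minimum of 1 FPKM. Of the other class II genes, 3 were at 1 FPKM or more, and none was 1.5 times apart. Summed hematopoietic markers (Ptprc, Tyrobp and Fcer1g) had 0.131 and 0.123, and EC markers 0.4 and 0.448. Stromal markers (Pdgfra, Pdgfrb, Col1a1 and Lum) had 1819 and 1566, and smooth muscle markers (Acta2, Tagln and Myh11) 612 and 633. Reads of both groups were aligned to the C57BL/6J reference, and the part of other alleles in the levels of single H2 genes was not tested.

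**Figure D5:**
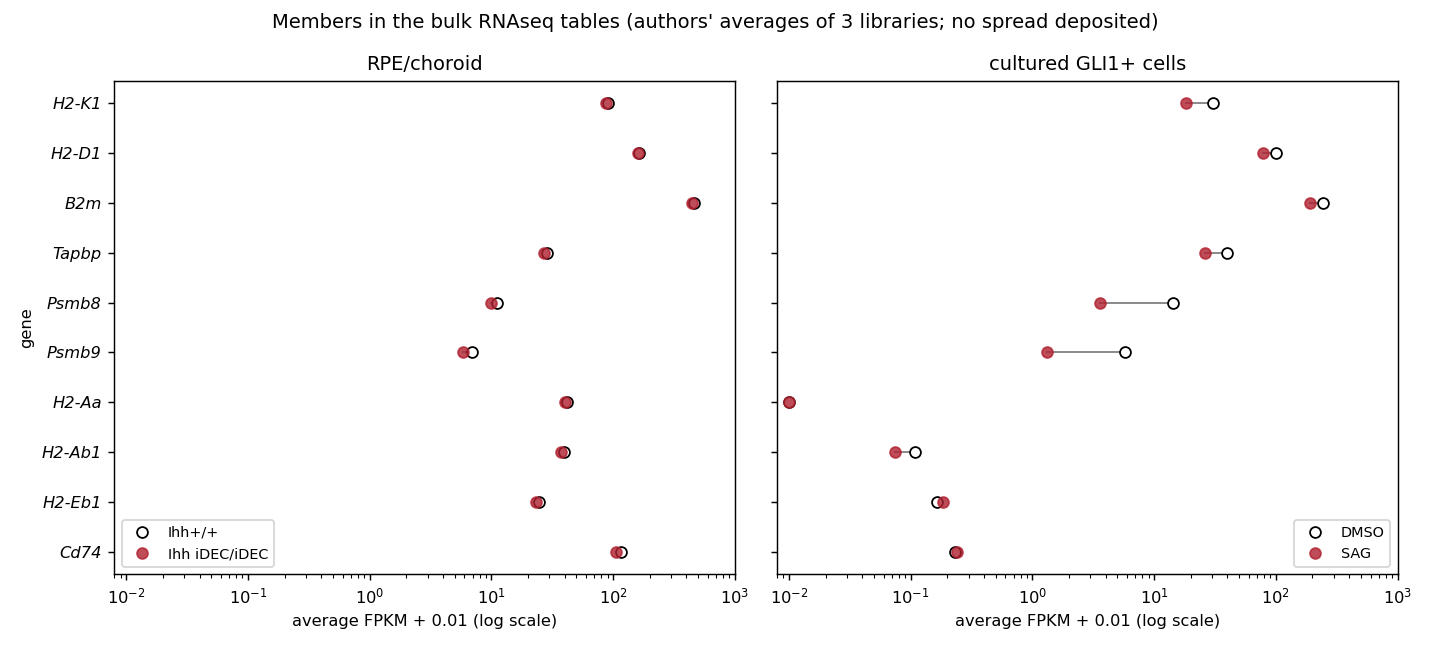
Average FPKM + 0.01 (log scale) of the 10 members in RPE/choroid of Ihh+/+ (open) and Ihh iDEC/iDEC (red) mice, left, and in GLI1+ cells with DMSO (open) and SAG (red), right; points are the authors' averages of 3 libraries, and H2-Aa, listed at 0, stands at 0.01 on the right. The pairs nearly coincide on the left, and Psmb8 (14.3 and 3.56) and Psmb9 (5.76 and 1.31) are farthest apart on the right.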

How the data were processed

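The scRNAseq counts are UMI counts that the authors made with Cell Ranger on mm10 and deposited for the cells kept after filtering in Seurat 2.1; the clusters are the authors'. The bulk tables hold FPKM values, for which the submitters' processing notes name STAR 2.4.0f1, Cufflinks 2.0.2 and mm10; the authors deposited them as averages of 3 libraries, with no read depth. These tables also hold the authors' log2 fold changes and adjusted P values, and other tables hold EC-enriched and cluster genes; none was used.

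UMIs of each gene were summed per cluster and library. Python 3.11.15, scipy 1.17.1 and scanpy 1.11.5 were used. Intervals are exact Poisson or Clopper-Pearson intervals at 95% and cover counting error only. Cells of cluster 11 were clustered with Leiden (igraph 0.11.9) on 1500 variable genes centred within each library, 15 principal components, 10 neighbours and a resolution of 1. A subcluster was named where it held at least 3 markers of a class at 2 times the level in the other cells, and its 10 leading genes did not favour another class; plasmacytoid dendritic genes were added to that comparison after the leading genes were seen. Bulk genes counted as apart at 1.5 times where the higher group had 1 FPKM or more, and genes between strains at 1.5 times with at least 100 UMIs over both libraries. No doublets were removed. The steps were tested on simulated data.

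All members were named. Other pathway genes were named when 1.5 times apart in a bulk comparison or among the 3 highest of their list, and the 5 genes most like H2-K1 and H2-Ab1 by Pearson r; exceptions are stated. The members and lists were chosen with earlier results of these data known.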

Additional observations from a re-analysis of the deposited data

How the results depend on the processing

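No paired analysis was possible because the bulk tables hold only group averages; the planned replicate block and the leaving out of each replicate were not run for the same reason, and no spread between animals can be given. Of 59 recomputed values that answer a comparison, 39 kept their side or stayed within the counting interval, and 20 moved; no ratio past 1.5 times reversed. The class II share in cluster 11 was 97.6% and 94.6% as a mean over cells, 97.4% (97.45%) and 94.4% with cells thinned to 1700 UMIs, and 98.2% and 96.8% (96.85%) without the cells outside cluster 11 with 10 or more class II UMIs, an alternative added after the data were seen. Without cells holding Ptprc, Tyrobp or Fcer1g it was 96.8% in C57BL/6J. The class II level in cluster 3 was 1.08 and 2.52 as a mean over cells, 1.15 and 2.68 with thinned cells, 0.723 and 1.55 without the cells with 10 or more, and 1.79 in C57BL/6J without cells holding those 3 genes. The highest class II level of a hematopoietic subcluster was 1156 and 722 without cells with Xist and Ddx3y, and in C57BL/6J 979.7 at a resolution of 1.5 and 838 with 10 principal components; the causes were not tested. At 2 times in place of 1.5, 0 members were apart between strains and 2 (Psmb8 and Psmb9) between SAG and DMSO. With a pseudocount of 1 FPKM, 3 members, without Tapbp, were apart between SAG and DMSO. With thinned cells, 8 of 10 members, without Psmb9, were highest in the hematopoietic cluster of C57BL/6J. As a mean over the 13 clusters, 6 members were apart between strains, without H2-K1 (1.34) and H2-D1 (1.36). The members gained were H2-Aa, H2-Ab1 and Cd74, which were higher in B6129PF1/J. Levels from few UMIs, as of Psmb9 in RPE, are limited by depth.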
